A study of Mus musculus with 3 samples.

Results

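Interleukins and their receptors were examined in endothelial cells (ECs) of the adult mouse lung. The set comprised every row of the deposited expression table whose gene symbol begins with Il followed by a digit, which gave 83 of the 24346 genes listed. These genes encode 37 ligands, 38 receptor chains, 6 inhibitors or decoys and 2 other products, as assigned here from their known roles. The study profiled the vasculature of several organs by RNA sequencing, and the values used here come from 3 libraries of freshly isolated adult lung ECs, labelled S38, S44 and S52. All 3 libraries were from wild type C57BL/6J mice, and per the study's methods adult animals were males of 6 to 8 weeks. The cells were sorted after an intravital VE-cadherin label and staining for CD31, CD45 and podoplanin, so that lymphatic ECs and leukocytes would be left out. The 3 libraries form 1 group with no second condition. Nothing in the labels says whether they came from separate animals, so the spread given below is that between libraries, which may be technical, and no difference was tested.

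Interleukins are secreted or membrane-bound cytokines that carry signals between immune and tissue cells. Most signal only when different receptor chains come together, and several chains are shared: gp130 (Il6st) serves the IL-6 family, the common gamma chain (Il2rg) serves IL-2, IL-4, IL-7, IL-9, IL-15 and IL-21, the common beta chain (Csf2rb) serves IL-3 and IL-5, and Il10rb serves IL-10, IL-22 and the lambda interferons. Most IL-1 family receptors pair with the accessory chain Il1rap and signal through MyD88, whereas the gp130 and common gamma chain receptors signal through Janus kinases and STAT proteins. Endothelium is a classical responder to IL-1, IL-4 and IL-6, which change its adhesion molecules and its release of further cytokines.

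Levels are given as FPKM, fragments counted per length of transcript and scaled to the size of the library, in the order S38, S44 and S52 with the mean ± SD. Detected below means a mean of 1 FPKM or more over the 3 libraries. The endothelial genes Pecam1, which encodes CD31, and Cdh5, which encodes VE-cadherin, had means of 1168 and 921 FPKM. RNA of other lung cells was present in unequal amounts. The summed FPKM of 4 general leukocyte genes was 69.4, 54.4 and 11.2, and that of 5 alveolar type 2 genes was 3778, 3164 and 755. A platelet list of 4 genes summed to 1692, 1345 and 38 FPKM, and 4 airway genes to 2767, 2303 and 401 FPKM, whereas 7 blood endothelial genes summed to 4382, 4864 and 4035 FPKM. S52 thus held the least of the non-endothelial markers named here. In a bulk sample, fewer cells of a type and less RNA per cell cannot be told apart. The libraries were estimated at 37940000, 39400000 and 34500000 fragments, at which 1 FPKM of a transcript of 2000 bp stands for 69.8, 71.7 and 62.3 fragments. A value of 0 allows up to 0.0430, 0.0418 and 0.0482 FPKM for such a transcript, a limit of 3 fragments that covers counting error only.

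In the sorted lung EC libraries a limited set of interleukin genes was detected, and 3 receptor chains made up most of the summed level. Of the 83 genes, 25 (30.1%) had a mean of at least 1 FPKM, compared with 48.3% of all genes in the table. A mean of at least 10 FPKM was reached by 12 of them, while 25.7% of all genes did so. Another 35 had means above 0 but below 1 FPKM, and 23 (27.7%) were listed at 0 in all 3 libraries, compared with 29.5% of all genes. The median of the 83 means was 0.297 FPKM, and that of all genes was 0.784 FPKM. By role, 16 of 38 receptor chains, 7 of 37 ligands and 2 of 6 inhibitors were detected, and 16 ligands and 5 receptor chains were listed at 0 throughout. Among families, 9 of 21 IL-1 family genes and 7 of 17 common gamma chain family genes were detected, but 0 of 7 IL-12 family genes. The summed level of the 83 genes was 644, 671 and 521 FPKM, of which the 3 highest genes took 59.2%, 62.2% and 63.0%.

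**Figure D1:**
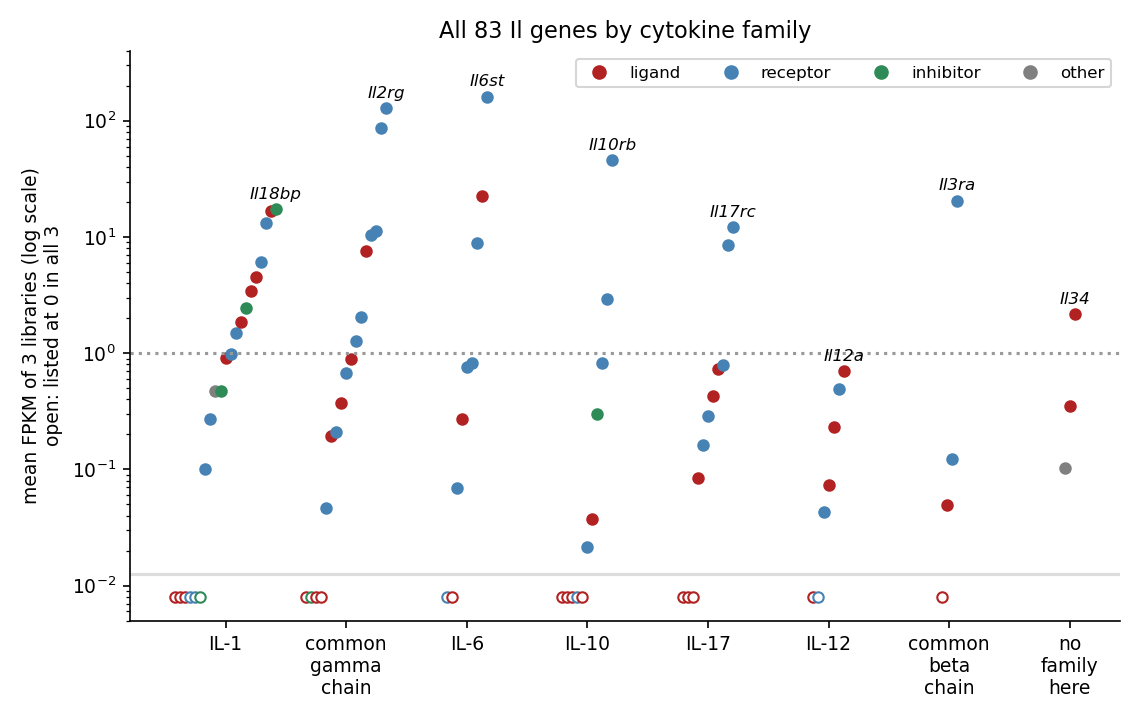
Mean FPKM of the 3 libraries (log scale) for each of the 83 Il genes, grouped by cytokine family and coloured by role, with the highest gene of each family named. The dotted line marks 1 FPKM, and open circles under the grey line are the 23 genes listed at 0 in all 3 libraries; the highest gene is a receptor chain in the common gamma chain, IL-6, IL-10, IL-17 and common beta chain families.

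The 4 highest genes all encode receptor chains. Il6st, the signal-transducing chain gp130, had 163, 180 and 140 FPKM (161 ± 20.1, SD, n = 3), which ranked 570 among all genes. Il2rg, the common gamma chain, had 130, 138 and 117 FPKM (128 ± 10.6), and Il4ra, the ligand-binding chain for IL-4 and IL-13, had 88.5, 99.0 and 70.8 FPKM (86.1 ± 14.3). Il10rb followed with 50.9, 46.4 and 39.2 FPKM (45.5 ± 5.91). Each of these 4 genes stood above the next in every library and their ranges lay apart, as did those of Il10rb and the next gene, Il6. From Il6 downwards, the range of every detected gene overlapped that of its neighbour, although genes farther apart in that order did not all overlap. Within every library, however, Il17rd stood above Il15, and Il15 above Il1rap. For the other neighbours from Il6 downwards, the gene with the higher mean was not the higher in every library.

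**Figure D2:**
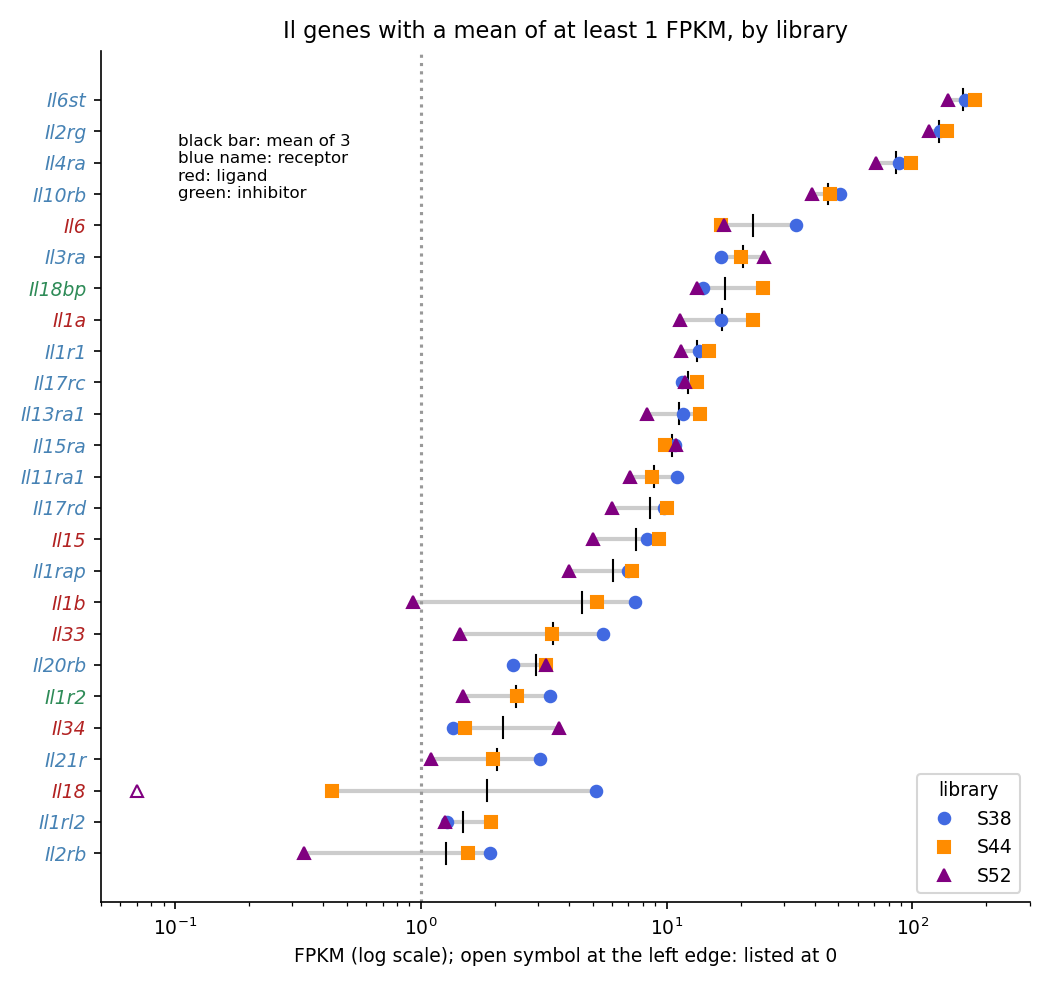
FPKM (log scale) of the 25 detected Il genes in S38 (circles), S44 (squares) and S52 (triangles), with a black bar at the mean and names coloured by role (blue receptor, red ligand, green inhibitor). Il6st, Il2rg, Il4ra and Il10rb lie apart at the top, whereas Il18 runs from 5.15 FPKM in S38 to an open triangle for its listed 0 in S52.

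Il2rg is best known from lymphocytes. The highest library was 1.18 times the lowest for Il2rg, against 9.91 times for Ptprc, which encodes CD45 (4.30, 2.06 and 0.434 FPKM). The part of leukocytes in the Il2rg level was not tested. Both Il2rg and Il10rb share exons on the same strand with a further annotated gene, so reads could be assigned either way. For Il2rg (chrX:101264378-101268255, minus strand, GRCm38) this was 43.6% of exonic bases, shared with Gm20489, and for Il10rb (chr16:91406164-91425834, plus strand) it was 30.8%, shared with Gm21970. Neither Gm20489 nor Gm21970 had a row in the table.

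Among the IL-6 family receptors with an Il symbol, gp130 and the IL-11 receptor chain were detected, 2 of 6, compared with 48.3% of all genes. The ligand-binding chain for IL-6, Il6ra, was just under the threshold at 0.727, 0.795 and 0.766 FPKM (0.762 ± 0.0341), a steady level resting on an estimated 234, 265 and 223 fragments. Mean Il6st was 211 times mean Il6ra and 196 times mean Il27ra, the IL-27 receptor chain, which had 0.684, 0.993 and 0.787 FPKM. Il6 itself had the highest mean of the ligands, at 33.7, 16.7 and 17.1 FPKM (22.5 ± 9.69), but this rested on S38. In S44 it was below Il1a, at 22.5 FPKM, and without S38 both means were 16.9 FPKM. Il11 had 0.655, 0.167 and 0 FPKM, and Il31 was listed at 0 in all 3. Against the same 48.3% of all genes, 5 of 10 genes of this family without an Il symbol were detected. Lifr, the leukaemia inhibitory factor receptor, and Osmr, the oncostatin M receptor, were the highest of these, at 30.0 ± 3.27 and 20.4 ± 0.703 FPKM, and Ebi3, a subunit of IL-27 and IL-35, was the lowest at 0.0171 ± 0.0148 FPKM.

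Il11ra1, the IL-11 receptor alpha chain, had 11.0, 8.70 and 7.13 FPKM (8.93 ± 1.92), while its near copy Il11ra2 and the gene model Gm13305 were both listed at 0 in all 3 libraries. The coding sequences of Il11ra1 and Il11ra2 are 1296 bp each and differ at 13 positions, an identity of 99.0%, and those of Il11ra2 and Gm13305 are identical. Of the 1959 windows of 51 bp, the read length, in the Il11ra1 transcripts, 46.2% also occur in one of these copies, as do 100% of those of Il11ra2. The stretch of 90 coding bases below (coding bases 953 to 1042) is shown because it holds 3 of the 13 differing positions, marked by capitals, and a read of 51 bp lying within it covers at least 1 of them. Reads from the shared windows elsewhere carry no such base. It lies in exon 10 of Il11ra1 (chr4:41767946-41768035, plus strand) and in exon 9 of Il11ra2 (chr4:42657448-42657537, minus strand), both on GRCm38 and written 5′ to 3′ on the coding strand.
Il11ra1: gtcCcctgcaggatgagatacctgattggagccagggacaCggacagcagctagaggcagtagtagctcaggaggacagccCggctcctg
Il11ra2: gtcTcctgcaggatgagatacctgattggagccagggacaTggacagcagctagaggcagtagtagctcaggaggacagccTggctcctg
How such shared reads were assigned is not given in the sources used here.

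Receptor chains of the common gamma chain family were detected at 6 of 9, and its ligands at 1 of 7, compared with 48.3% of all genes. Besides Il2rg and Il4ra, Il13ra1, which pairs with Il4ra for IL-4 and IL-13, had 11.7, 13.7 and 8.29 FPKM (11.2 ± 2.73). Il15ra, which presents IL-15 to neighbouring cells, had 10.8, 9.86 and 10.9 FPKM (10.5 ± 0.584). The 3 libraries were close for Il15ra, whereas S52 was the lowest for Il13ra1. Il21r was lower, at 3.07, 1.96 and 1.10 FPKM (2.05 ± 0.987). Il2rb, the shared chain for IL-2 and IL-15, had 1.91, 1.55 and 0.336 FPKM (1.27 ± 0.824), below 1 FPKM in S52. Il2ra, the high-affinity IL-2 receptor chain, had a mean of only 0.212 FPKM, although it lies next to Il15ra within 91.5 kb of chromosome 2. Il7r, a chain for IL-7 and TSLP, had 1.59, 0.344 and 0.0674 FPKM, so that only S38 passed 1 FPKM, and Il9r had a mean of 0.0468 FPKM.

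The only ligand of this family to be detected was Il15, a survival factor for natural killer and memory T cells, at 8.30, 9.29 and 5.01 FPKM (7.53 ± 2.24). Il7, a lymphocyte survival factor, fell just short, at 0.999, 1.05 and 0.647 FPKM (0.898 ± 0.219). For the type 2 ligands, Il4 had 0, 0.582 and 0 FPKM and Il13 had 0.326, 0 and 0.785 FPKM, the largest of these values resting on an estimated 27 fragments. Il2, Il9 and Il21 were listed at 0 in all 3 libraries, as was the IL-13 decoy receptor Il13ra2. The receptor for IL-4 was thus at high FPKM in every library, while its ligands were at 0.785 FPKM or below. The Il4, Il13, Il5 and Il3 genes lie within 664 kb of chromosome 11, and 0 of these 4 were detected, compared with 48.3% of all genes.

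Of 8 IL-1 family receptor chains, 3 were detected, compared with 48.3% of all genes, and the median of the 8 was 0.630 FPKM. Il1r1, the signalling receptor for IL-1, had 13.5, 14.9 and 11.4 FPKM (13.3 ± 1.74), and its accessory chain Il1rap had 6.99, 7.25 and 4.0 FPKM (6.08 ± 1.81). The pair was thus present in every library. Il1rl2, which binds the IL-36 cytokines, had 1.28, 1.94 and 1.26 FPKM (1.49 ± 0.390). The decoy receptor Il1r2, which binds IL-1 without signalling, had 3.35, 2.47 and 1.49 FPKM (2.43 ± 0.930). Il1r1 was above the decoy in each library. Il1rl1, the receptor for IL-33, had 0.0512, 0.243 and 0.00571 FPKM, so little that mean Il1rap was 60.7 times it. The IL-18 receptor chains were Il18r1, at 1.94, 0.896 and 0.140 FPKM (0.992 ± 0.904), and Il18rap, at a mean of 0.269 FPKM. Except for Il1rap, these genes are neighbours: Il1r2, Il1r1, Il1rl2, Il1rl1, Il18r1 and Il18rap stand in this order within 478 kb of chromosome 1 (chr1:40074079-40551705, GRCm38). Of these 6 genes, the first 3 in that order were detected, counting the decoy Il1r2. Il18r1 missed the threshold narrowly and in S38 was above Il1rl2. Il1rapl1 and Il1rapl2, best known from neurons, were listed at 0 throughout.

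Among IL-1 family ligands, Il1a was the highest, at 16.7, 22.5 and 11.3 FPKM (16.8 ± 5.60). Il1b had 7.44, 5.23 and 0.930 FPKM (4.53 ± 3.31), so S52 was at about 1 FPKM while S38 was 8.0 times as high. The alarmin Il33 had 5.52, 3.42 and 1.45 FPKM (3.46 ± 2.04), again lowest in S52. Il18 had 5.15, 0.437 and 0 FPKM, from an estimated 142, 12 and 0 fragments, so its mean of 1.86 FPKM rested on S38 alone. The inhibitor Il18bp, which binds free IL-18, had 14.0, 24.6 and 13.3 FPKM (17.3 ± 6.30) and was above Il18 in every library. The IL-1 receptor antagonist Il1rn had 0.853, 0.546 and 0.0261 FPKM. Il1f9, which encodes IL-36 gamma, had 1.20, 1.40 and 0.138 FPKM (0.911 ± 0.677), and the other IL-36 ligands Il1f6 and Il1f8 were listed at 0. The genes Il1f8, Il1f9, Il1f6, Il1f5, Il1f10 and Il1rn lie within 198 kb of chromosome 2. Of these 6, 0 were detected, compared with 48.3% of all genes. Of the exonic bases of Il1a, 11.2% overlap Gm14023 on the opposite strand, which the unstranded libraries cannot separate, but Gm14023 had only 0.146, 0.111 and 0.0181 FPKM.

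Downstream genes of the IL-1 receptor were present at steady levels. All 11 signalling genes listed were detected, from Tab1, a partner of the kinase TAK1, at 3.40 ± 0.131 FPKM, to the adaptor Myd88 at 78.6 ± 9.66 FPKM. Of 7 genes that process or release IL-1 and IL-18, 4 were detected. Gsdmd, the pore-forming gasdermin D, had 66.1 ± 5.92 FPKM, and Casp4, encoding the mouse caspase that senses intracellular lipopolysaccharide, had 29.4 ± 5.87 FPKM, while the inflammasome sensors Nlrp3 and Nlrc4 had 0.196 ± 0.218 and 0.0162 ± 0.0281 FPKM. The 12 genes of gp130 and common gamma chain signalling were all detected, with the feedback inhibitors Socs3 and Cish at 376 ± 49.0 and 165 ± 50.8 FPKM and the lowest, Stat5a, at 4.26 ± 1.05 FPKM. These lists were chosen with earlier results known, and 48.3% of all genes passed the same threshold.

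In the IL-17 family the receptor chains were unequal. Il17rc had 11.5, 13.3 and 11.9 FPKM (12.2 ± 0.946), with little difference between libraries. Its obligate partner Il17ra had only 0.621, 1.32 and 0.424 FPKM (0.789 ± 0.471). Il17rd, also known as Sef, an inhibitor of fibroblast growth factor signalling, had 9.74, 10.0 and 5.98 FPKM (8.58 ± 2.26). Il17re, the chain for IL-17C, had a mean of 0.162 FPKM although it lies beside Il17rc within 24.7 kb of chromosome 6. No ligand of this family was detected: Il17a, Il17b and Il25 were listed at 0 in all 3 libraries, and the highest, Il17c, had 0, 0.836 and 1.36 FPKM. All 5 downstream genes listed were detected, compared with 48.3% of all genes. They ran from Traf3ip2, which encodes the adaptor Act1, at 2.11 ± 0.512 FPKM, to Nfkbiz, encoding the nuclear regulator IkappaB-zeta, at 99.0 ± 28.3 FPKM.

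For the remaining families, Il3ra, the IL-3 binding chain, had 16.6, 20.0 and 25.0 FPKM (20.5 ± 4.25) and was 1 of 4 detected genes highest in S52. Its signalling partner Csf2rb had 1.23, 0.776 and 0.223 FPKM, in the opposite order of libraries. Csf2rb2, also among the shared receptor chains listed, had 0.167, 0.132 and 0.0483 FPKM and was not counted in the IL-3 complex below. Il20rb, a chain for IL-20 and IL-24, had 2.38, 3.22 and 3.23 FPKM (2.94 ± 0.488), while its partner Il20ra was listed at 0. Il10ra, the ligand-binding chain for IL-10, had 1.36, 1.08 and 0.00881 FPKM, an estimated 172, 141 and 1 fragments. Il10 had 0, 0.112 and 0 FPKM, and Il19, Il20 and Il24, its neighbours within 143 kb of chromosome 1, were listed at 0. Il34, a ligand of the Csf1 receptor, had 1.35, 1.52 and 3.64 FPKM (2.17 ± 1.28), highest in S52. Csf1r itself, a gene of the monocyte and macrophage list, had 1.25, 1.85 and 1.30 FPKM. In the IL-12 family the highest gene was Il12a, at 1.22, 0.506 and 0.368 FPKM, and Il27 and Il23r were listed at 0.

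Receptor levels were then read by complex, since a single chain does not signal. Of 28 complexes listed, 8 had every chain at a mean of at least 1 FPKM, 14 had some but not all, and 6 had none. Of all single genes, 48.3% passed this threshold, and no share was computed for sets of other genes. Chains such as Il2rg, Il6st and Il10rb belong to several complexes, so the 28 are not separate items. The complete complexes were those for IL-1, IL-2 (intermediate affinity), IL-4 (type I), IL-4 and IL-13 (type II), IL-11, IL-15, IL-21 and IL-36. In 6 of these 8, every chain was at 1 FPKM or above in each library. The exceptions, IL-2 and IL-15, both failed in S52 through Il2rb. In 11 complexes the lowest chain was below 1 FPKM while the highest was at 10 FPKM or above, and in 8 of these the low chain was a partner of Il6st, Il2rg, Il10rb or Osmr. In the others the low chain was Csf2rb for IL-3, Il17ra for IL-17A and IL-17F, and Il7r for TSLP. Mean Il2rg was 192 times Il7r, mean Il10rb was 55.8 times Il10ra, mean Il17rc was 15.5 times Il17ra and mean Il3ra was 27.6 times Csf2rb. For TSLP, a cytokine of barrier tissues that uses Il7r with Crlf2, Crlf2 was at 15.3, 19.1 and 13.9 FPKM and Il7r was again the low chain. When the 4 detected genes that share 10% or more of their exons or read-length windows with another gene (Il2rg, Il10rb, Il11ra1 and Il1a) were left out, 3 complete complexes remained: those for IL-1, IL-36 and the type II receptor.

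**Figure D3:**
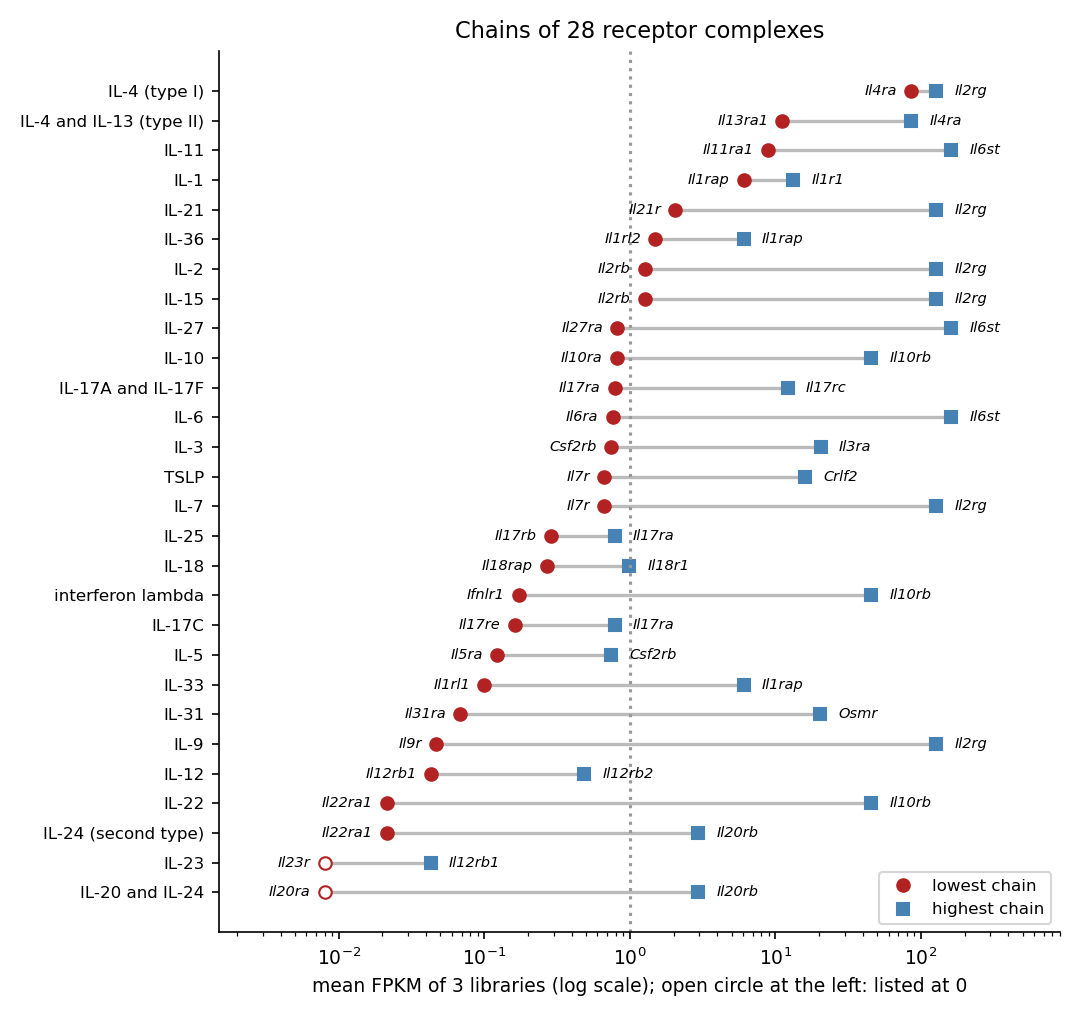
Mean FPKM (log scale) of the lowest chain (red circle) and the highest chain (blue square) in each of 28 receptor complexes, ordered by the lowest chain. The dotted line marks 1 FPKM; 8 complexes lie wholly to its right, and an open circle marks a chain listed at 0.

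Among the 25 detected Il genes, those with the widest range between libraries were 5 ligands, 2 receptor chains and the decoy Il1r2. The ratio of highest to lowest library passed 2 for 8 of the 25 detected Il genes (32.0%) and for 20.1% of all detected genes. The 8 were Il6, Il1b, Il33, Il1r2, Il34, Il21r, Il18 and Il2rb. Receptor chains below the threshold, not counted here, also had wide ratios, among them Il10ra at 154, Il7r at 23.7 and Il18r1 at 13.9. The lowest library was S52 for 6 of the 8, the others being Il6, lowest in S44, and Il34, lowest in S38. Without S38 or without S52 the number was 3. S52 was the lowest library for 19 of the 25 detected genes (76.0%), and for 46.3% of all detected genes. The median log2 ratio of S52 to S38, after adding 1 FPKM to each value, was -0.45 over the 25 genes and -0.08 over all detected genes. Against S44 it was -0.48 and -0.06.

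Some marker lists were lower in S52, and others had median ratios near 0. The median log2 ratio of S52 to S38 was -2.21 for the 4 general leukocyte genes, and all 4 were lowest in S52. Alveolar type 2 genes had a median of -2.37, neutrophil genes of -2.18 and airway genes of -2.04, compared with 0.05 for blood endothelial genes. Medians near 0 against both S38 and S44 were also found for dendritic cell genes, at -0.05 and -0.02, and lymphatic endothelial genes, at 0.01 and 0.09. Genes of group 2 innate lymphoid cells, at -0.10 and -0.10, and of basophils and mast cells, at -0.10 and -0.15, were near 0 too. The added 1 FPKM limits the ratio of any gene below 1 FPKM. Flt3, Itgax and Xcr1 of the dendritic cell list and every basophil and mast cell gene were below it in each library. The monocyte and macrophage list had medians of -0.37 and -0.56. In each of the lists with medians near 0 that are not blood endothelial, 2 of 4 genes were lowest in S52. Those medians thus do not mean that every member was steady. Itgax of the dendritic cell list had 0.857, 0.483 and 0 FPKM, whereas Zbtb46, most of that list's sum, had 20.2, 26.6 and 26.2 FPKM. Klrg1 of the innate lymphoid list had 0.240, 0.255 and 0 FPKM, and Ccl21a of the lymphatic list had 9.41, 10.3 and 0 FPKM. Il1b, at -2.13 against S38 and -1.69 against S44, was close to the leukocyte list, which stood at -2.21 and -1.59. Other lists were also near it: alveolar type 2 at -2.37 and -1.79, neutrophil at -2.18 and -1.92, and airway at -2.04 and -1.95. Il34 stood at 0.98 and 0.88, and the median of the mural list of pericyte and smooth muscle genes at 0.56 and 0.85. The mural sum was 103, 55.5 and 101 FPKM, however, since its most abundant gene, Acta2, had 90.3, 46.7 and 79.7 FPKM. The basophil and mast cell list summed to 0.280, 0.594 and 0 FPKM and the T cell list to 2.46, 2.25 and 0.391 FPKM, with the defining T cell gene Cd3e at 0.206, 0.261 and 0 FPKM. Natural killer genes summed to 8.12, 9.51 and 0.163 FPKM, B cell genes to 21.9, 15.5 and 7.10 FPKM and neutrophil genes to 37.0, 48.1 and 3.44 FPKM. The monocyte and macrophage list summed to 1068, 811 and 184 FPKM, nearly all of it Lyz2, a gene also made by alveolar type 2 cells. Of the remaining lists, fibroblast genes summed to 73.1, 56.0 and 41.9 FPKM and lymphatic endothelial genes to 35.6, 36.2 and 23.5 FPKM. Dendritic cell genes summed to 21.5, 27.5 and 26.6 FPKM, mostly Zbtb46, and genes of group 2 innate lymphoid cells to 16.4, 11.6 and 12.6 FPKM. In the innate lymphoid list, Areg and Klrg1 were lowest in S52, while Gata3 and Rora were highest there. Neither sum therefore shows whether dendritic or innate lymphoid cells were as frequent in S52 as in S38 and S44. For all the cell types listed, a sum is a level of RNA and not a number of cells. The part of these cells in the interleukin values was not tested.

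**Figure D4:**
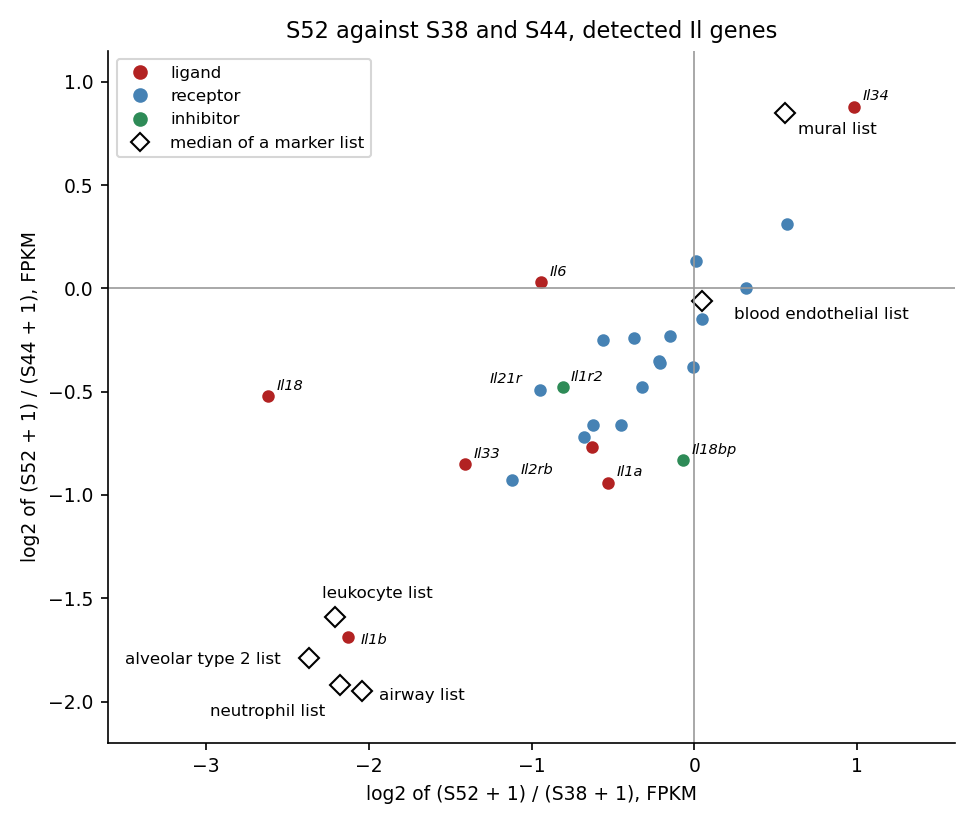
Log2 ratio of S52 to S44 against log2 ratio of S52 to S38 (1 FPKM added to each value) for the 25 detected Il genes, coloured by role, with diamonds at the medians of 6 marker lists. Receptors lie between -1.12 (Il2rb) and 0.57 (Il3ra) on the horizontal axis, Il1b lies beside the median of the leukocyte list, and Il34 and the mural median are in the upper right.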

How the data were processed

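Poly(A)-selected, unstranded RNA libraries were sequenced as paired reads of 51 bp. The authors deposited 1 table of FPKM values, normalised for transcript length and library size, with 24346 genes and 3 library columns. The submitters' processing notes name bcl2fastq 2.17, FastQC 0.11.5, Trimmomatic 0.36, TopHat2 2.1.0, Cufflinks 2.2.1 and mm10. The paper's methods describe a count pipeline instead, so how the deposited FPKM were made, and the annotation and handling of shared reads, are not given in the sources used here.

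Values were used as deposited. Detection was a mean of at least 1 FPKM, and log2 ratios used a pseudocount of 1, which understates changes of low genes. With 1 group, no test was run. Genes were named by rule: all detected genes, the 3 genes either side of 1 FPKM, chains of detected ligands, ligands of complete complexes, genes listed at 0 whose receptor was detected, and overlapping or near-identical genes. The members, gene lists, complexes and markers were chosen with earlier results of these data known. Trac and Ly6g, on 2 of the marker lists, had no row. Gene positions and exon overlap were taken from GENCODE M21 (GRCm38), which held all 83 genes.

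The table gives no depth. It was estimated from the low FPKM found among 7077 genes with 1 basic transcript of 800 to 4000 bp. At the chosen depth and length correction there were 231, 306 and 163 such low values in S38, S44 and S52. Of these, 79.7%, 79.1% and 76.7% stood for a fragment number no more than 0.15 from a whole one. By chance 30% would at a fixed depth. Depth and correction were chosen for closeness to whole numbers, so 30% is not the chance rate after that choice. On counts simulated for the 7077 genes the depth was found with an error of at most 0.0364%. Those counts were whole numbers made with the same formula that was then fitted. The error therefore does not measure accuracy on the deposited values. Fragment numbers derived from it are estimates, and the method was picked once the table had been seen. Python 3.11.15, pandas 2.3.3, NumPy 2.4.6 and Matplotlib 3.10.9 were used. Other thresholds, a second pseudocount, rescaling, libraries left out and genes sharing sequence left out were tried.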

Additional observations from a re-analysis of the deposited data

How the results depend on the processing

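With each library left out in turn, detected genes numbered 24 to 29 and complete complexes 6 to 10. The number of genes over 2-fold apart ranged from 3 (without S38 or without S52) to 8 (without S44). At a threshold of 0.1 FPKM there were 52 detected genes and 21 complete complexes. At 10 FPKM there were 12 detected genes, 2 complete complexes and 1 gene over 2-fold apart. Adding 1 FPKM before taking the ratio left 4 genes over 2-fold apart. Leaving out the 4 genes that share sequence, an alternative chosen after seeing the data, gave 21 detected genes and 3 complete complexes. Median log2 ratios stayed negative in the settings tried, from -0.19 to -0.59. Of 125 recomputed values of named genes, 112 moved by less than 1 SD, and the other 13 all moved when each library was rescaled to a sum of 1000000, which shifts the median of all detected genes by -0.42 on the log2 scale. No paired analysis was possible because there is 1 group. The 3 libraries of 1 group allow no test, and values resting on few fragments cannot order the low genes.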

Other observations

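A few genes below the threshold had their largest value in S52, the library lowest for most of the detected genes, and were chosen after their values were seen. Il23a, the IL-23 subunit p19, had 0, 0.0641 and 0.636 FPKM in S38, S44 and S52, an estimated 0, 3 and 26 fragments. Il9r had 0, 0 and 0.141 FPKM, the last an estimated 21 fragments, and Il12rb1 had 0, 0.00943 and 0.119 FPKM. Il17d, at 0.247, 0.411 and 0.635 FPKM, was likewise highest in S52. Tslp, which has no Il symbol and was above the threshold in every library, had 1.80, 1.87 and 4.81 FPKM.

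Il4i1, an amino acid oxidase induced by IL-4, was listed at 0.000231, 0.307 and 4.53e-09 FPKM, of which the first and last are far below what 1 fragment would give. Other genes overlap 91.1% of its exonic bases, among them Tbc1d17 at 16.6 FPKM and Nup62 at 23.8 FPKM. Likewise, 40.0% of the exonic bases of Il12rb2 (0.488 FPKM) lie opposite Serbp1 (27.4 FPKM), and the unstranded libraries cannot separate them.

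Il1rap overlaps Gm20319 on the opposite strand over 4.10% of its exonic bases, and Gm20319 had 3.44, 4.09 and 0.152 FPKM while Il1rap had 6.99, 7.25 and 4.0 FPKM.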
